A study of Mus musculus with 2 samples.

Results

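The genes described here are 10 glutathione and NRF2 detoxification genes, Gsta3, Gsta4, Gstm1, Gstm2, Gsto1, Gclc, Gclm, Nqo1, Hmox1 and Txnrd1, out of 31053 genes in each matrix. They were chosen by symbol with earlier results of these libraries in view, Gstm1 in cycling epithelial cells of the KO library among them, so their values are given as descriptions. Cells came from lungs of Pclaf WT and Pclaf KO mice aged 8 to 10 weeks, 1 week after bleomycin (1.35 U/kg in the deposited description), which injures the alveolar epithelium in both genotypes. No uninjured library was analysed here. The cells were sorted as CD31-/CD45-/EpCAM+ cells, and 1 droplet library (10x 3' chemistry) was made per genotype, with 16000 cells loaded per group according to the labels. The KO mice carried a germline knockout of Pclaf, a proliferation-associated factor. How many mice entered a library is not given in the sources used here. With 1 library per genotype no test was possible, and every interval below is a 95% interval that covers counting error only, not the spread between mice.

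The WT matrix held 30669 barcodes and 98171818 unique molecular identifiers (UMIs, each standing for 1 captured RNA molecule), and the KO matrix 17172 barcodes and 111267567 UMIs, with 163 barcodes in common. The WT matrix thus held more barcodes than the cells said to be loaded. After filters 30187 WT and 15637 KO cells remained, at medians of 2127 and 5957 UMIs. Against the sort on the labels, 5.56% of WT cells but 71.4% of KO cells lay in epithelial clusters, and 49.5% of WT cells lay in immune and 31.4% in endothelial clusters. Pclaf, the targeted gene, was at 185 counts per 1000000 UMIs (CPM) in cycling epithelial-like WT cells and 80.5 CPM in those of the library labelled KO. Reads of a 3' kit may lie outside the deleted part, so that this does not check the label. Levels below are CPM of the UMIs summed over the cells of 1 class in 1 library, and classes were named "-like" from marker genes. Free RNA and second cells in a droplet enter this measure. The paper describes its animals as male, but Xist, an RNA of female cells, was found in both libraries. Cycling epithelial-like cells had 785 CPM of Xist in the KO library against 452 in the WT library. For Krt8+-like cells the levels were 979 against 253 CPM, and for fibroblast-like cells 475 against 318. NK-like cells went the other way, with 113 against 246 CPM. The sex of the mice and its part in the ratios below were not tested.

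Glutathione is a small thiol that cells use to neutralise reactive compounds. Glutamate-cysteine ligase, built from the catalytic subunit Gclc and the modifier subunit Gclm, makes its rate-limiting precursor. Glutathione S-transferases of the alpha (Gsta3, Gsta4), mu (Gstm1, Gstm2) and omega (Gsto1) classes attach it to electrophiles or use it in redox reactions. Txnrd1 keeps thioredoxin reduced, Nqo1 reduces quinones, and Hmox1 breaks down haem. The transcription factor NRF2, encoded by Nfe2l2 and held back by Keap1, activates many of these genes under oxidative stress through the antioxidant response element. In the lung, detoxification is a known property of airway secretory cells, while alveolar type 2 (AT2) cells secrete surfactant and give rise, through a Krt8+ transitional state, to the flat alveolar type 1 (AT1) cells.

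In the GRCm38 annotation Gstm1 lies on the minus strand of chr3:108012255-108017973 and Gstm2 on the same strand at chr3:107981702-107986453. These close paralogs can share reads, and the split between them is uncertain. Gclm also lies on chromosome 3 (122245557 to 122270732, plus strand), where it overlaps Gm6061 on its own strand. Gclc (chr9:77754535-77794485) and Gsta4 (chr9:78182774-78209349) are both on the plus strand of chromosome 9. Gsta3 is at chr1:21240589-21265661, Gsto1 at chr19:47854970-47864790 and Txnrd1 at chr10:82833951-82897712, all on the plus strand, with Txnrd1 overlapping Eid3. Hmox1 (chr8:75093621-75100589, plus strand) and Nqo1 (chr8:107388225-107403206, minus strand) share chromosome 8.

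RefSeq promoter windows (GRCm38.p6, 300 bases, from 250 bases before to 50 after a start) were found for 7 of the 10 genes, in 10 windows. The core letters of the antioxidant response element, TGACNNNGC, were searched on both strands and found in 3 of the 10 windows, against 12.4% of all 32851 windows. Those 3 windows are printed to show where the letters lie, in capitals. In Gsta3 (chr1:21240335-21240634, plus strand) they start at position -121 from the start site on the gene's strand. In Gclm (chr3:122245307-122245606, plus strand) they start at -134, and in 1 of the 3 windows of Txnrd1 (chr10:82858956-82859255, plus strand) at -92, both on the opposite strand. A match describes the letters and is not evidence of binding.

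Gsta3: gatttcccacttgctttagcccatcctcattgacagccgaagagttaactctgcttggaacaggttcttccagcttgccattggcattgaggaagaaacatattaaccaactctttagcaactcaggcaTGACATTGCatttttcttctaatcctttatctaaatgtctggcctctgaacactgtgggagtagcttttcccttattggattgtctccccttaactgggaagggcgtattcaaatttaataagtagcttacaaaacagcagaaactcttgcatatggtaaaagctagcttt
Gclm: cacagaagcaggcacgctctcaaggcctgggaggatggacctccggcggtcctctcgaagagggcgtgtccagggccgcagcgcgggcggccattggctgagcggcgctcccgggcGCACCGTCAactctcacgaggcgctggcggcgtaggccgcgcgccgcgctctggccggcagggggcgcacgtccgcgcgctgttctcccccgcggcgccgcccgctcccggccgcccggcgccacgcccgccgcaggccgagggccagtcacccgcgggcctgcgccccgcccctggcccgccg
Txnrd1: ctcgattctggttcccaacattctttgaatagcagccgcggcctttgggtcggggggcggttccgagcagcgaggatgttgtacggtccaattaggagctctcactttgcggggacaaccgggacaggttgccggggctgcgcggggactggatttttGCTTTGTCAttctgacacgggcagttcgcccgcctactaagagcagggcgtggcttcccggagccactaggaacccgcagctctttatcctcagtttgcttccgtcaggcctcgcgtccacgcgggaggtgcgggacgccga

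The catalytic subunit Gclc had its highest levels in alveolar epithelial classes of both libraries. It was highest in WT Krt8+-like cells at 1246 CPM (1192 UMIs), then in WT AT2-like cells at 864 CPM (interval 832 to 898), and at 343 in goblet-like, 327 in ciliated-like and 225 CPM in AT1-like cells. In the KO library cycling epithelial-like cells had 852 CPM (821 to 883), AT2-like cells 752 (744 to 760) and Krt8+-like cells 664 (644 to 684). These counting intervals did not overlap, but the order of the first 2 classes is not firm. Their log2 difference was 0.18 (0.12 to 0.23), beside an all-gene median of 0.11, and TMM normalization factors would add -0.18. An AT2-like cluster of 690 KO cells was at 1044 CPM. KO goblet-like and ciliated-like cells followed at 360 and 342 CPM, where the intervals overlapped. Not every epithelial class was high in CPM, as KO club-like cells had 47.2 CPM, below KO T-like (96.4) and mesothelial-like cells (77.2). The 6 club markers took up 539340 CPM of the KO club-like class, which lowers its other genes in a share of a total. The part of this in the low Gclc level was not tested. Fibroblast-like cells had 32.1 CPM in WT and 31.2 in KO. After each cell was thinned to 1000 UMIs, 46.6% of WT and 40.3% of KO AT2-like cells held a Gclc UMI (69.8% and 80.2% before thinning, at medians of 4358 and 6656 UMIs). In T-like cells the thinned shares were 6.64% and 7.02%.

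The modifier subunit Gclm had another order of classes. Among classes with at least 50 cells, ciliated-like cells were highest in both libraries (178 CPM in WT, 225 in KO). Krt8+-like cells stood at 147 CPM in WT and 101 in KO. Near the top for Gclc, AT2-like cells were among the lowest for Gclm at 25.5 CPM in WT and 25.8 in KO. Across 38 combinations of class and library with at least 50 cells, Gclc and Gclm had a Pearson correlation of 0.37 on log2(CPM + 10), while Gclm and Txnrd1 had 0.60. These points share libraries and depth, so correlations are given as descriptions only. Both subunits were seen in 6.15% of WT and 2.53% of KO Krt8+-like cells at 1000 UMIs, in 0.79% and 1.05% of AT2-like cells, and in 4.29% and 6.11% of ciliated-like cells.

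**Figure D1:**
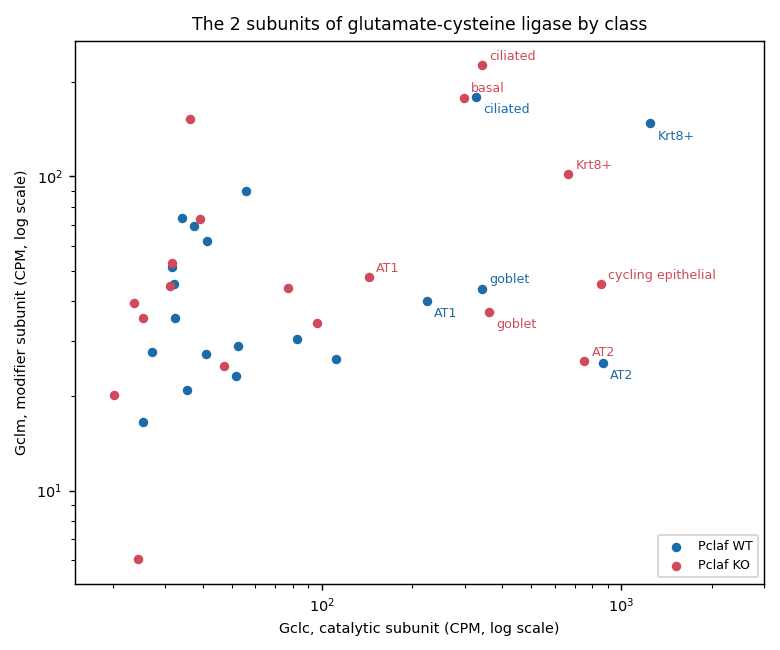
Level of Gclc (x axis, CPM, log scale) against level of Gclm (y axis, CPM, log scale), 1 point for each class and library with at least 50 cells, blue for WT and red for KO. AT2-like cells lie far to the right and low (864 and 25.5 CPM in WT), whereas Krt8+-like and ciliated-like cells are high on both axes.

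The mu class transferases were highest in airway and stromal classes, and Gstm1 was also high in blood endothelial-like cells. Of the immune classes, alveolar macrophage-like cells had 210 CPM of Gstm1 in WT and 195 in KO. Gstm1 was highest among classes with at least 50 cells in WT ciliated-like cells (656 CPM), ahead of blood endothelial-like (307) and fibroblast-like cells (253). In the KO library basal-like cells (110 cells) led at 1126 CPM, above ciliated-like cells at 846. Among classes with at least 50 cells, Gstm2 was highest in fibroblast-like cells in WT (173 CPM, with 249 in KO) and in basal-like cells in KO (457). Gstm1 and Gstm2 had a correlation of 0.79 across the 38 points. In the alveolar epithelial classes Gstm1 was below the median of classes (96.8 CPM in WT, 155 in KO), with 73.3 CPM in WT AT2-like cells and 51.6 in those of the KO library. Gstm2 was at 27.1 and 12.1 CPM in AT2-like cells, with class medians of 23.0 in WT and 36.8 in KO. AT1-like cells were above these medians for Gstm2, at 62.0 and 47.0 CPM.

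The rule by which the genes were chosen names Gstm1 as high in cycling epithelial cells of the KO library. With the main processing these cells did not stand above AT2-like cells of the same library. KO cycling epithelial-like cells had 51.3 CPM of Gstm1 (179 UMIs, 397 cells), against 51.6 in KO AT2-like cells, a log2 difference of -0.01 (-0.23 to 0.21). Under other processing this log2 difference took either sign, as listed in the closing section. KO cycling epithelial-like cells ranked 14 of 18 KO classes. The 27 WT cycling epithelial-like cells had 0 Gstm1 UMIs. With the floor of 3 counts in place of 0, they stood at 20.5 CPM, and the KO level was 2.50-fold higher (0 against 179 UMIs). As log2 of KO over WT this was 1.32, and the counting interval began lower, at 1.01. Under the same floor, the log2 ratio of WT cycling epithelial-like over WT AT2-like cells was -1.84, with a counting interval that reached up to -1.53. The contrast thus rested on the low WT count.

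Gsta3 and Gsta4, the alpha class members, had their highest levels in mesothelial-like and airway classes. Gsta3 was highest in mesothelial-like cells of both libraries (586 CPM in WT, 553 in KO), with KO club-like cells at 370 and goblet-like cells at 294 in WT and 242 in KO. Fibroblast-like cells had 129 and 159 CPM of Gsta3. Gsta4, which acts on the lipid peroxidation product 4-hydroxynonenal, was highest, among classes with at least 50 cells, in goblet-like cells in WT (303 CPM) and in basal-like cells in KO (619), with KO goblet-like cells at 329. Ciliated-like cells had 152 CPM of Gsta4 in WT and 215 in KO, above mesothelial-like cells (129 and 123). AT2-like cells had 82.8 CPM in WT and 72.7 in KO, but it was at 0.602 CPM in WT blood endothelial-like cells and at 0 in monocyte-like cells of both libraries.

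Gsto1, the omega class member, separated AT2-like cells from every other alveolar class. AT2-like cells had 12.4 CPM in WT and 4.83 in KO, the latter the lowest of the 18 KO classes. AT1-like cells had 241 and 269 CPM, and Krt8+-like cells 230 and 238. Goblet-like cells were higher still, at 501 CPM in WT and 621 in KO, and KO basal-like cells reached 961.

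Of the redox enzymes, Txnrd1 was highest in Krt8+-like and ciliated-like cells. The levels were 271 and 221 CPM in WT, where neutrophil-like cells had 208, and 211 and 272 CPM in KO. Hmox1 was highest in phagocytes, which take up haem, in the WT library, with 128 CPM in WT monocyte-like, 120 in WT alveolar macrophage-like and 90.4 in other WT macrophage-like cells. KO alveolar macrophage-like and other macrophage-like cells each had 103 CPM, but KO monocyte-like cells 45.4 from 9 UMIs. Krt8+-like cells (76.3 and 67.5) and AT2-like cells (58.9 and 45.5) were the highest non-cycling epithelial classes for Hmox1. Nqo1 was scarce throughout, at 20.4 CPM or lower in every class with at least 50 cells (3 UMIs in lymphatic endothelial-like WT cells at that top value), and its order is not interpreted.

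The order of classes was much the same in both libraries. Over 15 named classes with at least 50 cells in both, the Pearson correlation between WT and KO was 0.97 or more for Gstm2, Gsta3, Gsta4, Gsto1, Gclc and Txnrd1. It was 0.92 for Gstm1, 0.88 for Hmox1, 0.84 for Gclm and 0.74 for Nqo1. Free RNA from AT2 cells, scaled from Sftpc, could give at most 97.4 CPM of Gclc in KO Krt8+-like cells and 61.0 in WT AT1-like cells. By its level, none of the 19 WT and 16 KO classes examined was at or below its own such limit for Gclc, Gclm, Gstm1, Gsto1 or Txnrd1. The interval lay above the limit in 14 of 16 KO classes for Gclc, and in 15 for Gclm and for Gstm1. For Gsto1, Gclm and Gstm1 the limits were at most 0.877, 3.34 and 6.68 CPM, as their AT2-like levels were low, so passing them says little. Free RNA from cells other than AT2 is not covered. For the remaining members, classes at or below the limit numbered 3 in KO for Gsta3 and for Gstm2, 2 in KO and 3 in WT for Gsta4, 1 in KO for Hmox1, and 5 in KO and 2 in WT for Nqo1.

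**Figure D2:**
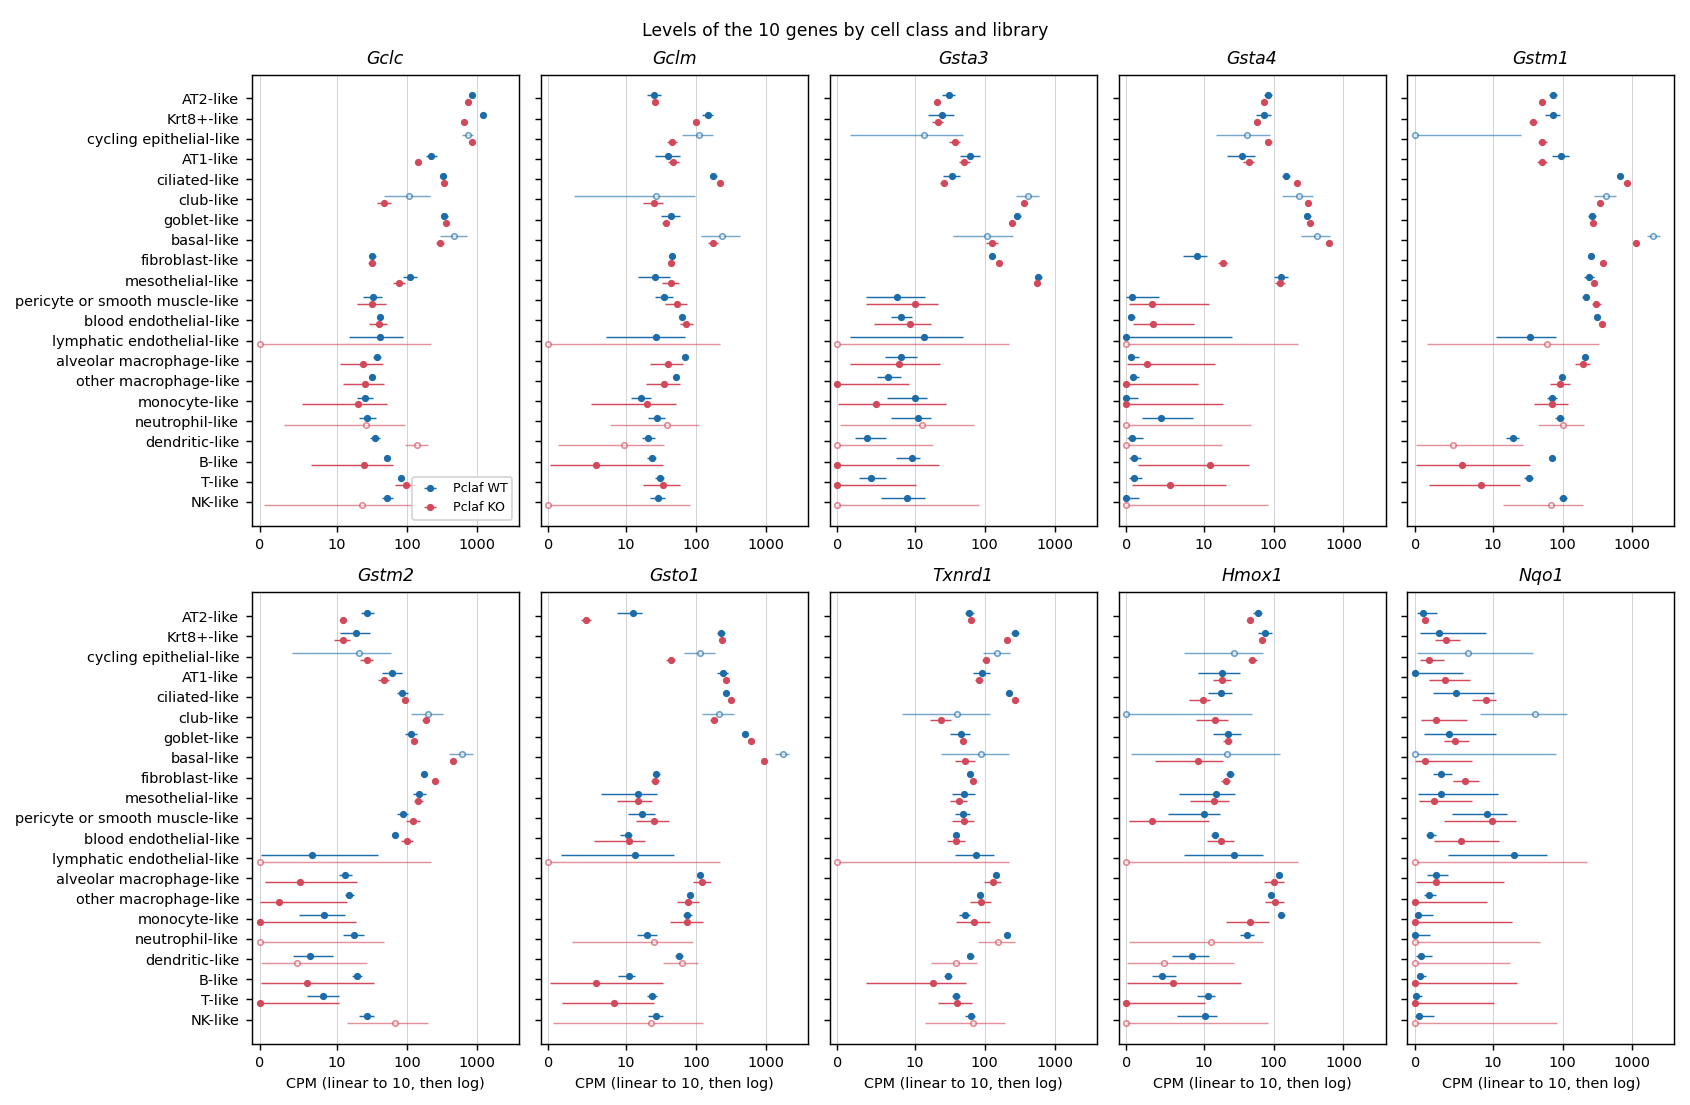
Level of each of the 10 genes (x axis, CPM, linear to 10 and then log) by marker-named class (y axis) in the WT library (blue) and the KO library (red), with exact Poisson 95% intervals, open and paler where a class held under 50 cells. Gclc peaks in alveolar epithelial classes, Gsto1 is low in AT2-like cells alone among alveolar classes, and Hmox1 is high in macrophage-like cells of both libraries (103 CPM in KO) and in monocyte-like cells of WT only (128 and 45.4 CPM).

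The Krt8+ transitional state was compared with AT2-like cells within each library, a comparison added after values were seen. Gsto1 was 18.5-fold higher in WT Krt8+-like cells (log2 4.21, 3.71 to 4.74) and 49.2-fold higher in KO (5.62, 5.42 to 5.83). Gclm was 5.78-fold higher in WT and 3.92-fold in KO, and Txnrd1 4.52-fold and 3.34-fold. These 3 genes were at least 2-fold higher in both libraries. Nqo1 was the only other member past 2-fold, at 3.28-fold in KO from 26 UMIs. Thus 3 of 9 members with enough UMIs passed 2-fold in WT and 4 of 10 in KO, beside 22.1% of all genes higher and 9.32% lower in WT, and 31.8% higher and 7.06% lower in KO. None of the members was 2-fold lower, and the members' median log2 difference was 0.37 in WT and 0.31 in KO, below the all-gene medians of 0.44 and 0.61. The surfactant gene Sftpc took up 127397 CPM of the WT and 162730 CPM of the KO AT2-like class. CPM are shares of a total, so a larger surfactant share lowers the other genes in this measure. How much of these differences came from that was not tested.

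Gclc behaved otherwise in the same comparison. It was higher in Krt8+-like than in AT2-like cells in WT (log2 0.53, 0.43 to 0.63) and lower in KO (-0.18, -0.23 to -0.14). The all-gene median of 0.44 in WT lay inside the WT interval, and that of 0.61 in KO lay above the KO interval. The Gclc intervals of the WT and KO libraries did not overlap. Gstm1 was at -0.02 in WT and -0.45 in KO, and Hmox1 at 0.37 and 0.57. Compared with AT2-like cells, AT1-like cells had less Gclc (-1.94 in WT, -2.39 in KO) and less Hmox1 (-1.68 and -1.31), and more Gsto1 (4.28 and 5.80), Gstm2 (2.29-fold and 3.88-fold) and Gsta3 (1.03 and 1.33). Most AT1-like cells, 351 WT and 487 KO, lay in a shallow cluster at medians of 725 and 1212 UMIs. Krt7 and Krt18 of the Krt8+ markers were among its leading genes. This cluster had 291 CPM of Gsto1 in WT and 420 in KO, against 156 and 157 in the other AT1-like cluster. The AT1-like sums thus mix unlike clusters. Ciliated-like cells had more Gsto1 (4.46 and 6.03), Gstm1 (3.16 and 4.04) and Gclm (2.81 and 3.12) than AT2-like cells. Cycling epithelial-like cells also had more Gsto1 (3.23 in WT, 3.17 in KO), Gclm (2.10 and 0.81) and Txnrd1 (1.33 and 0.71) than AT2-like cells.

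**Figure D3:**
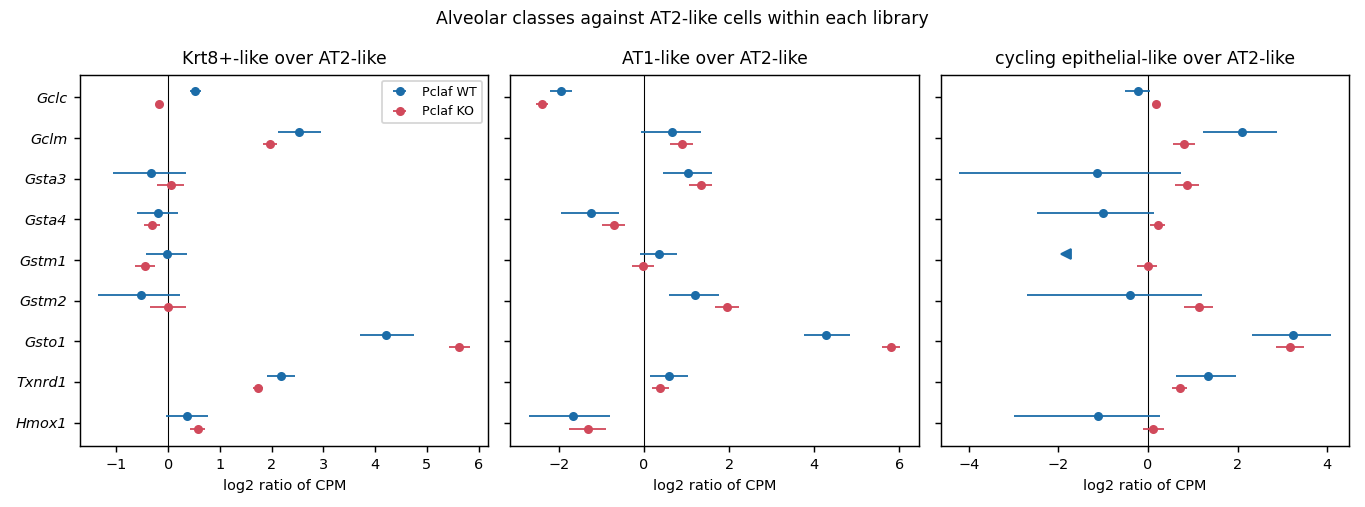
Log2 ratio of Krt8+-like, AT1-like and cycling epithelial-like cells over AT2-like cells of the same library (x axis) for 9 of the genes (Nqo1 is left out for few UMIs), blue for WT and red for KO, with 95% counting intervals and a triangle for a bound from 0 UMIs. Gsto1 lies far to the right in all 3 classes, at 4.21 in WT and 5.62 in KO Krt8+-like cells, and Gclc lies far to the left only in AT1-like cells.

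The other 66 genes listed for the pathway gave a mixed picture in the transitional state. In both libraries 10 of 49 were at least 2-fold higher in Krt8+-like than in AT2-like cells and 7 were at least 2-fold lower, while 12 were higher and 9 lower in WT of 49, and 17 higher and 8 lower in KO of 60. Of all genes tested in both libraries, 1480 of 7977 were higher and 520 lower in both. Srxn1, which repairs oxidised peroxiredoxins, was at 80.5 CPM in WT and 63.2 in KO Krt8+-like cells. Among classes with at least 50 cells this was the highest level of both libraries. Sqstm1, which binds KEAP1, also had its highest level there, at 603 and 408 CPM. So did Mafg, a partner of NRF2 on DNA, at 84.6 and 78.9 CPM, and Ephx1, an epoxide hydrolase, at 160 and 182. Catalase (Cat) and malic enzyme (Me1) instead had their highest levels in AT2-like cells, Cat at 332 CPM in WT and 313 in KO. Nfe2l2 itself was at 274 CPM in WT AT2-like and 295 in WT Krt8+-like cells, with an interval of the log2 difference of -0.09 to 0.30, and at 222 and 266 CPM in KO (0.19 to 0.34). These genes were picked from the list after their levels were seen.

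Between the libraries, AT2-like cells of the KO library had less Gsto1 and Gstm2 than those of the WT library. Gsto1 was at 12.4 CPM in WT (39 UMIs) and 4.83 in KO (227), which as log2 of KO over WT was -1.36 (-1.86 to -0.83). Gstm2 was at 27.1 and 12.1 CPM, a log2 ratio of -1.16 (-1.49 to -0.82). These were 2 of 10 members at least 2-fold lower in KO and 0 of 10 at least 2-fold higher, where 4.78% of all genes were lower and 1.45% higher. The count of 2 was 1 with doublets removed, members among the variable genes, a marker gate, TMM factors or thinning, and 0 with the filter limits read as UMIs. Gsta3 (-0.57), Gstm1 (-0.51), Hmox1 (-0.37), Gclc (-0.20) and Gsta4 (-0.19) were also below 0 with their intervals, and those of Gclm (-0.31 to 0.36), Txnrd1 (-0.13 to 0.30) and Nqo1 (-1.28 to 2.66) spanned 0. The median of all genes was -0.14.

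The AT2-like classes of the libraries were not made of the same clusters. Most of the 713 WT cells were in clusters of 270, 148 and 116 WT cells, and most of the 6805 KO cells in others of 1871, 1671, 910, 690 and 576 KO cells. By sign alone, Gstm2 was lower in KO in 7 of 8 AT2-like clusters (highest log2 ratio 0.43), Hmox1 in 7 of 8, and Gclc and Gstm1 in 6 of 8 each. The intervals of Hmox1 and Gstm1 spanned 0 in every cluster. That of Gstm2 lay below 0 only in the clusters of 148 and 116 WT cells. That of Gclc lay above 0 in the cluster of 690 KO cells (0.03 to 0.38). It lay below 0 in those of 270 and 148 WT cells, of 910 KO cells and led by Lcn2. Gsto1 was lower in 5 clusters, higher in 1 and at a bound in 2. In the cluster led by Lcn2, Gclc was at 395 CPM in WT and 174 in KO. Blood endothelial markers in AT2-like cells summed to 257 CPM in WT and 34.4 in KO (12 of 12 with a UMI in each), fibroblast markers to 114 and 38.6 (8 of 8), and club markers to 15357 and 4262 (6 of 6). Club-like cells had 215 CPM of Gsto1 in WT (30 cells) and 181 in KO. The part of RNA from such cells in the lower Gsto1, Gstm2 and Gstm1 levels was not tested. When the limits of 200 and 5000 were read as UMIs, the log2 ratio of Gsto1 was 0.75.

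In Krt8+-like cells, 181 in WT and 968 in KO, the largest differences were in Gstm1 and Gclc. Gclc was at 1246 CPM in WT and 664 in KO, a log2 ratio of -0.91 (interval -1.001 to -0.815). Gstm1 was at 72.1 and 37.8 CPM (-0.93, -1.32 to -0.53). Gclm (-0.54, -0.81 to -0.27) and Txnrd1 (-0.36, -0.55 to -0.16) were lower as well, whereas Gsto1 was at 0.05 (-0.16 to 0.26). Thus 8 of 9 members were below 0, beside 5497 of 10204 of all genes. Past 2-fold in either direction were 0 of 9, beside 1.57% of all genes lower and 3.13% higher, and the all-gene median was -0.04. After thinning, a Gclc UMI was seen in 33.5% (26.7% to 40.9%) of WT and 24.9% (22.2% to 27.8%) of KO cells. AT2 markers in this class summed to 7290 CPM in WT and 27828 in KO (10 of 10 with a UMI), Sftpc alone to 5017 and 21067, club markers to 761 and 7198 (6 of 6) and blood endothelial markers to 144 and 21.0 (11 and 12 of 12). Their part in these ratios was not tested.

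Cycling epithelial-like cells gave the widest intervals, as the WT library held only 27 such cells. Gsto1 was at 116 CPM in WT (17 UMIs) and 43.5 in KO (152), log2 -1.42 (-2.14 to -0.60), and Gclm at 110 (16 UMIs) and 45.3 CPM (-1.27, -2.02 to -0.43). Besides Gstm1, Gsta3 (2 WT UMIs, 13.7 against 37.2 CPM) and Gsta4 (6 WT UMIs, 41.1 against 84.2 CPM) were past 2-fold upward, with intervals that spanned 0 (-0.44 to 4.51 and -0.10 to 2.49). In all 3 of 9 members were at least 2-fold higher and 2 of 9 lower, where 9.1% of all genes were higher and 7.52% lower. Gstm1 in this class helped to choose the genes, so nothing is read from this count. Gclc was at 739 and 852 CPM, with an interval that spanned 0 (0.20, -0.07 to 0.50). Krt8+ markers in this class summed to 4633 CPM in WT and 2072 in KO (13 of 13 with a UMI), and club markers to 1814 and 30211 (5 and 6 of 6, Cldn10 at 0 in WT). Their part was not tested. At clustering resolutions of 0.4 and 1.2, no member was 2-fold higher, and Gsto1 was at 1.58 when 1 in 6 KO cells was drawn.

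AT1-like cells had Gclc at 225 CPM in WT and 143 in KO (log2 -0.65, -0.94 to -0.35), while within each cluster of the class the interval spanned 0. In the cluster with 351 WT and 487 KO cells the ratio was -0.24 (-0.54 to 0.08), and in that with 65 and 269 cells it was -0.26 (-1.15 to 0.76). The former had 322 CPM in WT and the latter 54.9, and the KO library held a larger part of its AT1-like cells in the latter. Gstm1 was at -0.89 (-1.35 to -0.41) in the class, at -0.91 (-1.45 to -0.35) in the former cluster and at -0.07 (-1.09 to 1.13) in the latter.

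In ciliated-like cells 8 of 10 members, and in fibroblast-like cells 6 of 10, were above 0 by the class sums. Of all genes, 5341 of 11445 and 4996 of 12132 were above 0 there. Both classes were made of different clusters in the 2 libraries, and several of the members' ratios did not hold within them. By the class sums, Gsta4 (0.50, 0.31 to 0.71), Gstm1 (0.37, 0.27 to 0.46), Gclm (0.34, 0.15 to 0.52), Txnrd1 (0.30, 0.14 to 0.47) and Gsto1 (0.21, 0.06 to 0.36) were higher in KO ciliated-like cells, and Hmox1 was lower (-0.82, -1.45 to -0.15). Of the 10 members 0 were past 2-fold there, beside 2.36% of all genes higher and 6.06% lower. In fibroblast-like cells Gsta4 (9.06 and 18.6 CPM, 1.04, 0.66 to 1.43), Nqo1 (0.94, 0.29 to 1.61), Gstm1 (0.56, 0.49 to 0.64), Gstm2 (0.52, 0.43 to 0.62) and Gsta3 (0.30, 0.19 to 0.41) were higher in KO by the class sums. There 1 of 10 members was at least 2-fold higher and 0 lower, beside 0.783% and 9.73% of all genes. Club markers in ciliated-like cells summed to 37138 CPM in WT and 15528 in KO (6 of 6) and AT2 markers to 6552 and 18438 (10 of 10), with Sftpc alone at 3931 and 13824 CPM. In fibroblast-like cells blood endothelial markers summed to 1089 CPM in WT and 105 in KO (12 of 12). The part of these markers was not tested.

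Within the ciliated-like cluster with the most cells (95 WT and 917 KO), Gsta4 (0.10), Gstm1 (0.07), Gclm (0.14), Txnrd1 (0.04) and Gsto1 (-0.12) had intervals that spanned 0. In a cluster of 42 WT and 285 KO cells Gstm1 (-0.40, -0.69 to -0.09) and Gsto1 (-0.48, -0.90 to -0.03) were lower in KO. A further cluster held 71 WT and 15 KO cells, and there Gstm1 was lower (-0.99, -1.52 to -0.50) and Gsto1 (1.29, 0.86 to 1.71) and Txnrd1 (0.62, 0.12 to 1.10) higher in KO. Fibroblast-like clusters were as uneven, with 35 WT and 724 KO cells in 1 cluster, 841 and 53 in another, and 413 and 8 in one more. The 4 clusters with over 100 cells in each library are given here. In the cluster of 543 WT and 134 KO cells Gsta3 was lower in KO (-0.66, -1.01 to -0.32), and in those of 169 and 407 cells (-0.05), of 169 and 543 cells (-0.21) and of 287 and 183 cells (0.23) its interval spanned 0. Gstm2 was at 0.46 (0.18 to 0.74), -0.44 (-0.87 to 0.01), 0.21 (-0.03 to 0.46) and 0.30 (0.03 to 0.56) in the same clusters. Gstm1 was at 0.28 (0.04 to 0.51), 0.02 (-0.35 to 0.40), 0.65 (0.42 to 0.89) and 0.89 (0.65 to 1.14), and Gsta4 at 2.24 (1.10 to 3.46), -0.58 (-1.98 to 0.97), 0.67 (-0.35 to 1.87) and -0.22 (-1.99 to 1.43). Among these values, Gstm1 was above 0 in each of the 4 clusters, by its interval in 3, while Gsta3 was above 0 by its interval in none. Outside these 4, in the cluster of 841 and 53 cells, Gsta3 (0.66, 0.11 to 1.17) and Gstm2 (0.99, 0.52 to 1.44) were higher in KO. In that of 35 and 724 cells the intervals of both spanned 0 (-0.29 and -0.07).

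**Figure D4:**
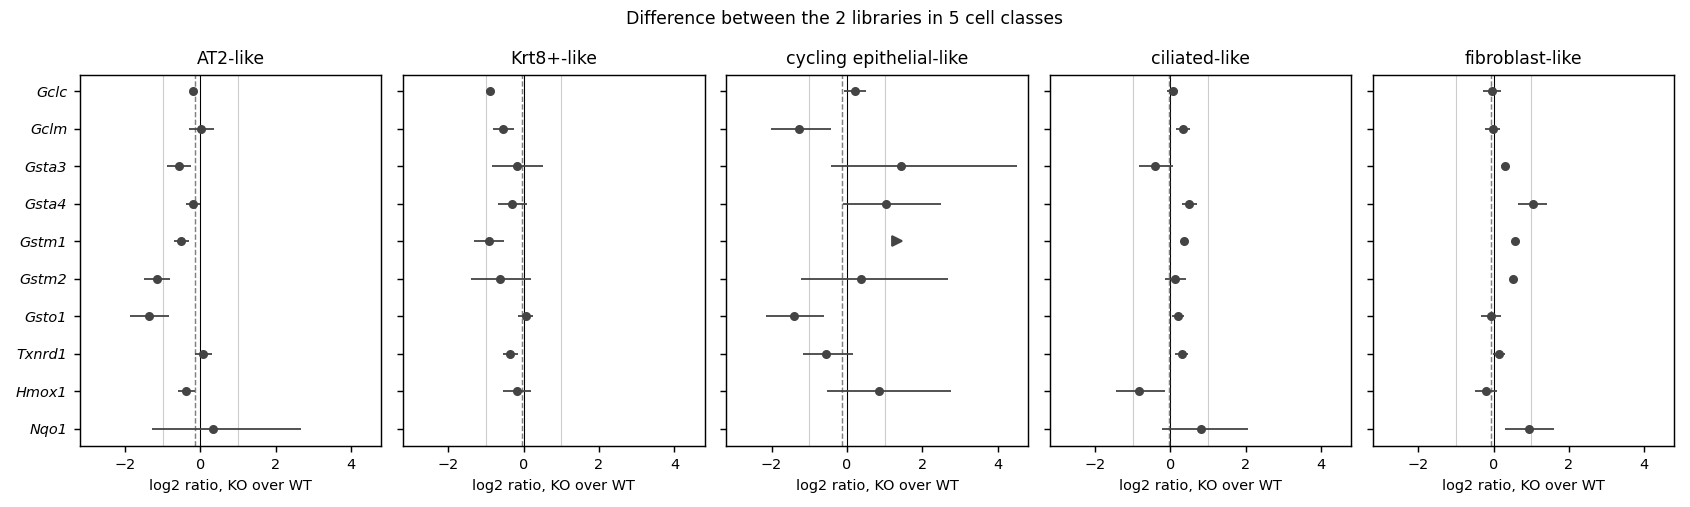
Log2 ratio of KO over WT (x axis) for each of the genes in 5 classes, with 95% counting intervals, triangles for bounds from 0 UMIs, grey lines at 2-fold and a dashed line at the median of all genes. Most points lie left of 0 in AT2-like and Krt8+-like cells (Gstm2 -1.16, Gclc -0.91), as did 8567 of 12295 and 5497 of 10204 of all genes. Most lie right of 0 in ciliated-like and fibroblast-like cells, where several ratios did not hold within clusters.

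Intervals were then counted over named classes with at least 50 cells in each library, at least 50 UMIs of the gene in all and more than 3 in each library. Gstm1 was higher in KO in 5 of 13 such classes and lower in 3, Gclc was higher in 0 of 15 and lower in 4, and Hmox1 was higher in 1 of 11 and lower in 3. Higher and lower were 3 and 1 of 9 for Gstm2, 1 and 2 of 8 for Gsta3, and 2 and 1 of 7 for Gsta4. They were 2 and 1 of 11 for Gsto1, 2 and 2 of 13 for Gclm, 1 and 1 of 14 for Txnrd1, and 1 and 0 of 2 for Nqo1. These counts are against 0 and not the all-gene median of a class. The same counts over all genes are not given here, so nothing is read from them. Classes with 3 KO UMIs or fewer were left out of these counts, among them B-like (593 WT UMIs and 1 KO UMI of Gstm1, interval -8.85 to -1.06) and T-like cells (204 and 3 UMIs, -4.23 to -0.37), where Gstm1 was also lower in KO. So was Hmox1 in T-like cells (73 and 0 UMIs, with an upper end of -0.12).

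Of the pathway list, 2 of 57 genes were at least 2-fold higher in KO AT2-like cells and 3 lower (median -0.20), which is 3.51% and 5.26% beside 1.45% and 4.78% of all genes. In Krt8+-like cells 2 of 55 were higher and 2 lower (median -0.13), 3.64% each beside 3.13% and 1.57%. In cycling epithelial-like cells 7 of 45 were higher and 2 lower (median 0.07), 15.6% and 4.44% beside 9.1% and 7.52%. In AT2-like cells Aldh1a1, a retinaldehyde dehydrogenase, stood at 49.4 CPM in WT and 12.3 in KO (interval of the log2 ratio -2.26 to -1.74). Gpx3, the secreted glutathione peroxidase, was at -1.85 in both AT2-like and Krt8+-like cells. Both genes had far higher levels elsewhere, Aldh1a1 in ciliated-like cells (1227 CPM in WT, 1454 in KO) and Gpx3 in fibroblast-like cells (1561 and 1703). The part of RNA from such cells in these ratios was not tested. Gstm5 was at -1.06 in AT2-like cells with an interval of -2.02 to 0.06. Gstp1, the pi class transferase, was higher in KO by 1.09 (0.73 to 1.47) in AT2-like and 1.10 (0.41 to 1.87) in Krt8+-like cells. The rise was not particular to them, with 1.52 (1.12 to 1.96) in ciliated-like and 1.51 (1.27 to 1.74) in fibroblast-like cells. In cycling epithelial-like cells its interval spanned 0 (0.69, -0.70 to 2.58). The near copies Gstp2 and Gstp3 may share reads of Gstp1. Gsta1 was at 37.6 CPM in WT Krt8+-like cells and 4.89 in KO (-2.94, -3.68 to -2.21). Gpx2, the epithelial glutathione peroxidase, was lower in KO Krt8+-like (-0.95) and cycling epithelial-like cells (-1.64, -2.39 to -0.78). The 5 genes highest in KO cycling epithelial-like cells, Keap1, Abcc4, Aldh1a1, Ephx1 and Ggt5, each had 1 or 2 WT UMIs. Other listed genes at the ends of the order were Maff (-0.75) and Abcc1 (-0.72) in AT2-like cells on the low side, and Gstz1 (0.56), Gstt2 (0.39) and Cbr1 (0.27) on the high side, with Gstp2 at 2.81 from 1 WT UMI. In Krt8+-like cells Blvrb (-0.76) and Maff (-0.72) stood on the low side, and Gstp3 (1.26), Gstt1 (0.97), Slc7a11 (0.77) and Gsto2 (0.51) on the high side, where among these only Gstt1 had an interval above 0 (0.31 to 1.70). In cycling epithelial-like cells Mgst3 (-1.13) and Cul3 (-0.93) were lower in KO by their intervals, and G6pdx (-0.90) and Blvra (-0.77) had intervals that spanned 0.

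Genes with the pattern most like each member's were found by Pearson correlation across the same 38 points among 14920 genes. Tmem30b (0.94), Igsf5 and Grb7 (both 0.93) were nearest to Gclc, and Syne4 (0.92), Wfdc2 (0.91) and Tst (0.90) to Gsta4. Pir was nearest to both Gstm1 (0.88) and Gstm2 (0.82), and Gstm2 was itself the second nearest to Gstm1 (0.79). Pgd, an enzyme of the pentose phosphate pathway, was nearest to Hmox1 (0.86), Gpx2 to Gsto1 (0.79), Cldn10 to Gsta3 (0.83), Glrx5 to Gclm (0.80), Map2k3 to Txnrd1 (0.79) and Gm38393 to Nqo1 (0.80). Among the members, Gsta3 had correlations of 0.76 with both Gsta4 and Gstm2, Gsta4 of 0.72 with Gclc, and Gstm2 of -0.43 with Hmox1.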

How the data were processed

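For each library the authors deposited a matrix of raw counts, the UMIs of every gene in every barcode. The labels name Cell Ranger 3.1.0, STAR and GRCm38 (mm10), and the matrix headers Cell Ranger 5.0.0. The annotation and the counting options were not given in the sources used here. Barcodes were required to show between 200 and 5000 genes and a mitochondrial share below 20%, and genes to occur in 3 cells or more. Cells were normalized to 10000 UMIs, log-transformed and clustered in scanpy 1.11.5 (Python 3.11.15; 2000 variable genes without the members and the pathway list, 10 principal components, 20 neighbors, resolution 0.8), first into lineages and then within them, in 75 clusters and 24 named classes. Each cluster was given the class of its best marker list, scored as mean log2 fold against the other clusters at equal weight instead of against the other cells, as first planned. It stayed unnamed (7.23% of WT and 6.36% of KO cells) with under 3 detected markers, leading genes of another class or a best class from another lineage. An immune or shallow cluster with no leading marker also stayed unnamed. Clusters of 98 WT and 32 KO cells, of 219 and 83, and of 38 and 301 had AT2 as best class. They lay in other lineages and were left out of the AT2-like class. Doublets called by Scrublet (7.76% of WT and 2.70% of KO cells) stayed in and were removed in an alternative.

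UMIs were summed per class and library. CPM have exact Poisson intervals, ratios exact conditional intervals for 2 Poisson counts, and shares of cells exact binomial (Clopper-Pearson) intervals, after thinning each cell to 1000 UMIs. Ratios were computed for all genes with at least 50 UMIs over both libraries in a class, and the percentages of all genes refer to these. The floor for a library at 0 was 3 counts. The ratio code was checked on simulated counts. TMM factors from edgeR 4.0.16 (R 4.3.3) served as 1 alternative, and no count model was fitted. The members, the pathway list, the markers and the tests were chosen with earlier results of these data known. Named genes were the 10 members, pathway genes among the 5 highest or 5 lowest KO over WT ratios in AT2-like, Krt8+-like or cycling epithelial-like cells, and the nearest genes by correlation. Comparisons with AT2-like cells other than that of cycling cells, and the listed genes described there, were chosen after values were seen. Protein sequences were not used here.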

Additional observations from a re-analysis of the deposited data

Results flagged for a closer look

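For 8 members the KO over WT log2 ratio lay above 0 in 1 class and below 0 in another, each by its counting interval. The share of all genes that do the same is not given here, so nothing is read from this count. Given here are the highest and the lowest such ratio among named classes with at least 50 cells and more than 3 UMIs of the gene in each library, and at least 50 UMIs in all. Lower ratios from 1 to 3 KO UMIs, such as Gstm1 in B-like (-8.85 to -1.06) and T-like cells (-4.23 to -0.37) and Gstm2 in other macrophage-like cells (-7.88 to -0.07), were left out. With 1 library per genotype the differences between classes were not tested.

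Gstm1 was at 0.84 in cycling immune-like cells, of which the KO library held 50, and at -0.93 in Krt8+-like cells. Gstm2 was at 0.57 in blood endothelial-like and -1.16 in AT2-like cells. Gsta3 was at 0.30 in fibroblast-like and -0.57 in AT2-like cells, and Gsta4 at 1.04 in fibroblast-like and -0.19 in AT2-like cells. Gsto1 was at 0.31 in goblet-like and -1.36 in AT2-like cells. Gclm was at 1.04 in cycling immune-like and -0.82 in alveolar macrophage-like cells, of which the KO library held 96. Txnrd1 was at 0.30 in ciliated-like and -0.36 in Krt8+-like cells. Hmox1 was at 1.06 in cycling immune-like and -1.50 in monocyte-like cells, the latter from 310 WT and 9 KO UMIs. The median of all genes in AT2-like cells was -0.14. AT2-like, ciliated-like and fibroblast-like cells were made of different clusters in the 2 libraries. Cycling immune-like cells lay in a shallow cluster of 502 WT and 38 KO cells and a deeper one of 343 and 12. The haemoglobin gene Hbb-bs was at 1081 CPM in WT and 24.3 in KO cells of that class. The part of this in its ratios was not tested. Within every AT2-like cluster the interval of Gsta3 spanned 0. In the ciliated-like cluster with the most cells the interval of Txnrd1 spanned 0 (0.04, -0.18 to 0.27). In that of 71 WT and 15 KO cells Txnrd1 was higher in KO (0.62, 0.12 to 1.10). Gsta3 was higher in KO in the fibroblast-like cluster of 841 WT and 53 KO cells (0.66, 0.11 to 1.17). It was lower in that of 543 and 134 cells (-0.66, -1.01 to -0.32).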

How the results depend on the processing

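Across 28 ratios and at most 15 alternatives each, 12 ratios kept their sign throughout, and 315 of 400 values stayed inside the interval of the reported value. Of the ratios past 2-fold, 6 values turned sign, and 79 other values lay outside the interval, some with the opposite sign. Gclc in Krt8+-like cells stayed below 0 in 15 of 15 alternatives (-1.40 to -0.68), as did Gstm1 there (-0.92 to -0.27) and Gstm2 in AT2-like cells (-1.61 to -0.78). Gstm1 in cycling epithelial-like cells stayed above 0 in the 12 alternatives that gave a value (0.66 to 2.46). Sign was kept in 10 of 14 for Gclc (down to -1.12) and in 10 of 13 for Hmox1 (down to -1.17) in cycling epithelial-like cells, and in 12 of 15 for Hmox1 in Krt8+-like cells (up to 0.70). The ratios past 2-fold that turned sign were Gsto1 in AT2-like cells with the limits read as UMIs (0.75) and, in cycling epithelial-like cells, Gsta3 at resolution 0.4 (-0.74) and 1.2 (-1.39), Gsto1 with 1 in 6 KO cells drawn (1.58), and with the members among the variable genes Gsto1 (0.85) and Gsta4 (-0.051). Limits read as UMIs left no cycling epithelial-like class. TMM added 0.20 to AT2-like, 0.13 to Krt8+-like and 0.29 to cycling epithelial-like ratios.

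Members at least 2-fold lower in KO AT2-like cells (2) numbered 0 with the limits read as UMIs and 1 with doublets removed, members among the variable genes, the marker gate, TMM or thinning. In Krt8+-like cells (0) they numbered 2 with the limits read as UMIs, 1 with doublets removed or the mean of CPM per cell, and 3 at 1.5-fold. In cycling epithelial-like cells those higher (3) numbered 1 with KO cells drawn or members among the variable genes, and 0 at resolution 0.4 or 1.2 or after thinning. Those lower (2) numbered 1 with no upper limit on genes, 20 components, resolution 0.4, members among the variable genes, TMM or the mean of CPM per cell, and 0 with doublets removed, KO cells drawn, resolution 1.2 or thinning. The cycling over AT2-like log2 ratio of Gstm1 in WT (-1.84) was -0.95 with members among the variable genes and -1.32 with the gate. In KO (-0.01) it was 0.34 with no upper limit, 0.23 with doublets removed, 0.56 with cells drawn, -0.31 and -0.95 at resolutions 0.4 and 1.2, 0.27 with the gate, -0.26 with the mean per cell and 0.34 after thinning. The cause was not tested. No paired analysis was possible because each genotype had 1 library. The 27 WT cycling epithelial-like cells limit every ratio of that class.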
